A study of Mus musculus with 6 samples.

Results

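Fibroblast growth factor (FGF) signalling was followed through 35 listed genes, named as a family and not by their values: extracellular ligands, intracellular FGF homologous factors, receptors, feedback inhibitors, ETS transcription factors, and receptor partners and adaptors. A gene was taken as measured where at least 1 probe set of the array was annotated to its symbol and to no other, which held for 30 of the 35, out of 12393 genes in all. Dusp4, Flrt2, Flrt3 and Frs2 had no such probe set, and the 2 probe sets of Etv1 carried other symbols too, so these 5 genes have no value here. The 30 measured members had 54 probe sets between them, and the value of a gene in a pool was the mean log2 ratio of its probe sets.

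The tissue came from mouse embryos of strain c57bl/6 at 9.5 days post coitum and held the body level from the otic placode back to the newest somite, with heart and endoderm taken off. The presomitic mesoderm and tail bud behind that level were cut away. Pooled tissue of wild-type embryos gave 3 pools, and pooled tissue of embryos homozygous for the targeted Dll3 allele tm1Rbe, also called Dll3 neo, gave another 3. Each pool was hybridised to 1 Affymetrix MOE430A array, and the labels do not say how many embryos made up a pool.

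FGF ligands bind receptor tyrosine kinases together with heparan sulphate, and the signal runs through the adaptor Frs2, the phosphatase Ptpn11 and RAS to the kinase ERK. ERK activity switches on transcription of several of the pathway's own inhibitors, among them Sprouty genes, Dusp6 and Il17rd, and of the ETS factors Etv4 and Etv5. Several of these transcripts are therefore widely used as a readout of FGF activity. In the mouse trunk, Fgf8 and Fgf4 of the tail bud and presomitic mesoderm help to set where somite boundaries form, next to the Notch oscillations in which Dll3 takes part, and in formed somites FGF signals from the myotome act on the neighbouring sclerotome and on muscle progenitors.

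The deposited values are ratios of each probe set to a reference of its own, for most rows its median over the 6 pools, so a value compares pools for 1 gene and carries no level. Levels of different genes were therefore not compared, and whether a gene was expressed in this tissue could not be read, which also holds for the tissue's marker genes. The deposited table gives no intensity, and with 6 arrays in all their number limits the precision. Dll3 is the targeted gene, and its single probe set had ratios of 0.960, 1.004 and 1.03 in the wild-type pools, against 0.996, 1.01 and 0.941 in the mutant pools. These values do not set the genotypes apart, and where the probe set lies relative to the insertion is not given here. Xist, the RNA of the silenced X in female cells, was at 0.975, 0.426 and 0.418 in the wild-type pools and at 1.09, 1.71 and 1.41 in the mutant pools. The Y-linked Eif2s3y, Kdm5d and Uty had log2 differences of -0.48, -0.19 and -0.30, each with groups that overlapped. The sex make-up of the pools thus appeared to differ along with genotype, though not equally in every pool. A sex score of each pool (Xist minus the mean of Y-linked transcripts) was therefore also fitted as a covariate. The difference from that fit is given beside the described members whose difference moved most with it. Every mutant pool scored above every wild-type pool: the lowest mutant score was 0.045 and the highest wild-type score -0.085. The score therefore largely follows genotype, and this fit can hardly separate the 2. Its differences show how far a value depends on the model and are not genotype effects freed of sex. No interval is given for them.

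As sequence context, the 250 bases upstream of the annotated start are given for 3 inhibitor genes, Spry1, Spry2 and Dusp6. These shared the same highest pool, as did Spred2 and Il17rd, which is described further on. Whether these bases regulate the genes was not tested. Sequences are from RefSeq (build GRCm38.p6), 5′ to 3′ on the strand of the gene. Capitals mark the letters GGAA, the core that ETS factors bind, or TTCC, the same core on the other strand. Spry1 lies at chr3:37639697-37639946 on the plus strand, Spry2 at chr14:105896820-105897069 on the minus strand and Dusp6 at chr10:99262981-99263230 on the plus strand.
Spry1: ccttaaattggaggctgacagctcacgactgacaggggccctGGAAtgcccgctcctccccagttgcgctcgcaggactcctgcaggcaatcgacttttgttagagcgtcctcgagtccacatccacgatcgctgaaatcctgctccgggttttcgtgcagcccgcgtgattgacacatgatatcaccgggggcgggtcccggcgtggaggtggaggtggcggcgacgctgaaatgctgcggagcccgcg
Spry2: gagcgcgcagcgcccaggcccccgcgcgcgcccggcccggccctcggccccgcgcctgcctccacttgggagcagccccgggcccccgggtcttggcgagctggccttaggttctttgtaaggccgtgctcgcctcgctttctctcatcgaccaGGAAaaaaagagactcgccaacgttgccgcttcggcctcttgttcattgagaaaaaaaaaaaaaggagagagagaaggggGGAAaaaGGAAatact
Dusp6: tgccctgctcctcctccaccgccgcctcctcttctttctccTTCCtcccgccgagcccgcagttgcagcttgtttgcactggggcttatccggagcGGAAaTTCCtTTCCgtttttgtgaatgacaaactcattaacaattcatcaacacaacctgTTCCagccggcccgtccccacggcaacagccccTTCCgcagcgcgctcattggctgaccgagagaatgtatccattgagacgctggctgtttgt

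The window held 1 match for Spry1, 3 for Spry2 and 6 for Dusp6; matches of this motif cannot share bases. Of 32851 such windows in the RefSeq table, 93.4% held at least 1 match, with a median of 3, and 8.69% held at least as many as Dusp6. Such short matches are a description of the letters only.

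No FGF member passed the test for a difference between genotypes. With limma over all 12393 genes, 0 of 30 members had a Benjamini-Hochberg adjusted p under 0.05, and so did 0% of all genes, with 331 genes (2.67%) at an unadjusted p under 0.05. The adjusted p of every member was 0.9997. Of the members, 1 (3.33%) reached that unadjusted mark, Fgf18. The mutant and wild-type pools did not overlap for 0 of the 30 members, against 7.46% of all genes. Log2 differences (Dll3 mutant minus wild-type) were above 0 for 16 members and below 0 for 14, a share of 53.3% above 0 against 51.9% of all genes, and the median was 0.003 for the members and 0.003 for all genes. In tissue RNA of this kind, fewer cells of a type and less RNA per cell cannot be told apart.

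The 95% intervals of the genotype-only fit give the precision of each member's difference in ratio, taken 1 gene at a time. They take no account of the sex make-up of the pools, nor of whether a probe set responds to its gene, which could not be read. For 29 of the 30 members the 95% interval of the log2 difference lay within 0.5 on either side of 0, Fgf7 being the exception, and so it did for 98.6% of all genes. Over all members the intervals reached from 0.701-fold to 1.33-fold of the wild-type value. With the sex score as a covariate, Fgf8 was at 0.43 on the log2 scale, above the 0.41 at which its interval ended. The typical spread between pools of the same genotype was 0.103 on the log2 scale for members and 0.106 for all genes. Differences between genotypes exceeded 0.1 for 5 members (16.7%), namely Fgf1, Fgf7, Fgf8, Fgf18 and Spry4, against 23.1% of all genes.

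**Figure D1:**
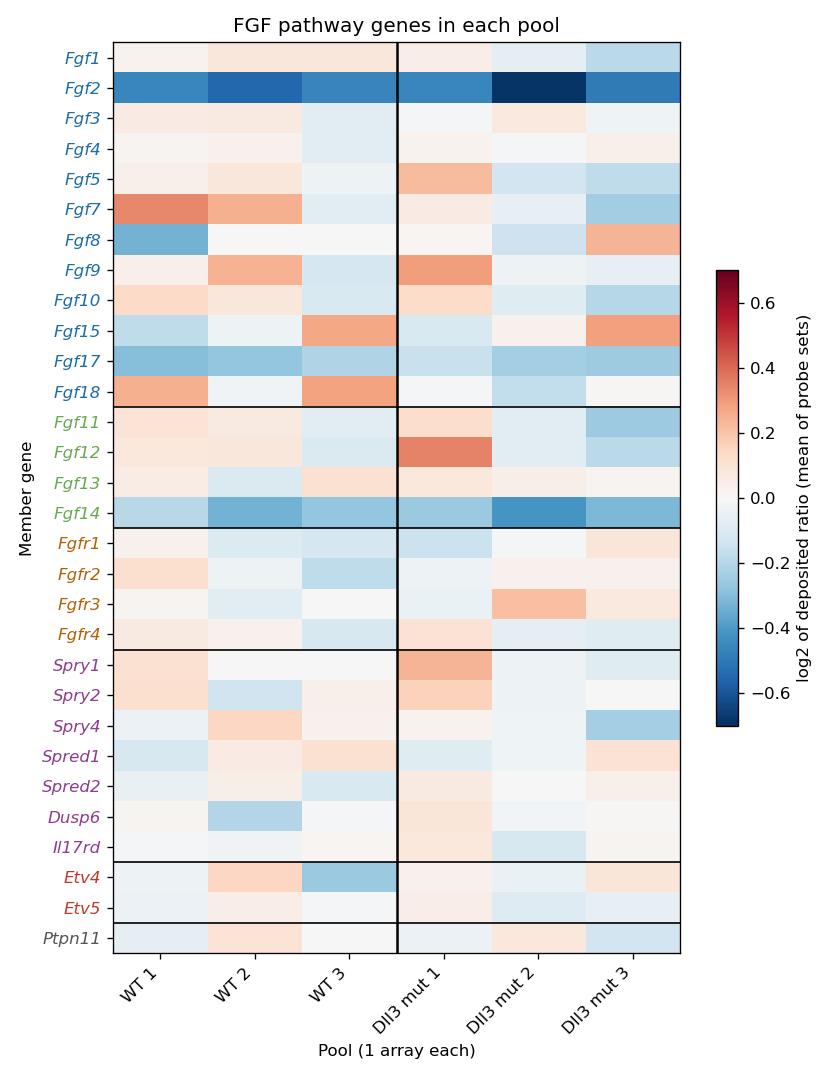
Heat map of the log2 ratio (colour scale) of the 30 measured FGF members (rows, grouped by role, name colours as in the plot of differences) in the 3 wild-type (WT) and 3 Dll3 mutant (Dll3 mut) pools, 1 array each. Fgf2, Fgf14 and Fgf17 are blue throughout because their rows, or 1 of their rows, have a median ratio below 1, which is no statement on their level; no row separates the genotypes.

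**Figure D2:**
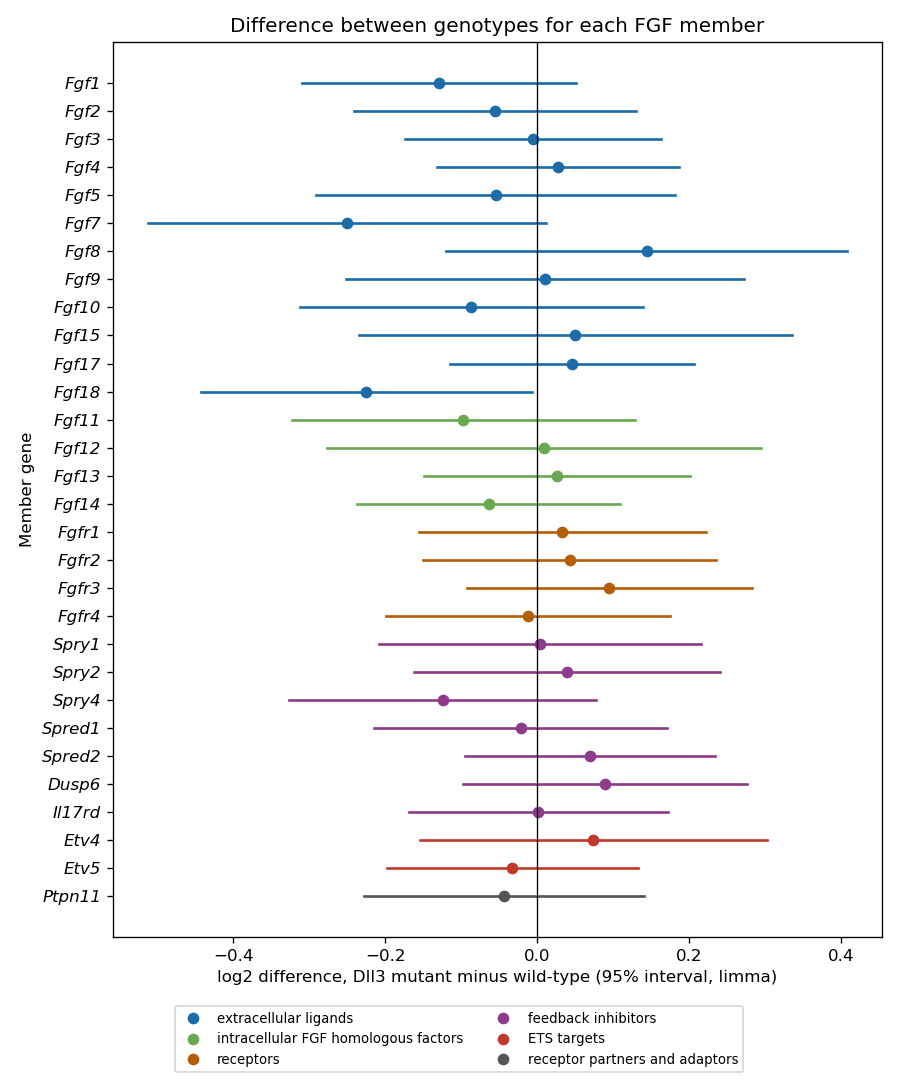
Log2 difference between Dll3 mutant and wild-type pools for each member (points) with its 95% interval from limma (lines), 3 pools per genotype, coloured by role. All intervals but that of Fgf18 cross 0, and none of the differences passed after adjustment over all genes.

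Among the 12 extracellular ligands, 5 had a difference above 0 and 7 below, with a median of -0.03 on the log2 scale. Fgf18, a ligand of the Fgf8 subfamily with roles in skeletal development, had ratios of 1.19, 0.982 and 1.21 in the wild-type pools, against 0.996, 0.887 and 1.004 in the mutant pools. Wild-type replicates 1 and 3 lay above every mutant pool, while wild-type replicate 2 lay among them. Its log2 difference of -0.23 (SE 0.098, n = 3 pools per genotype) had the smallest p of the members, with an unadjusted limma p of 0.0442. The interval of -0.44 to -0.01 just leaves out 0 before adjustment, and without any of wild-type replicate 1, wild-type replicate 3, mutant replicate 2 or mutant replicate 3 the unadjusted p was no longer under 0.05.

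Fgf7, a mesenchymal ligand that signals to epithelia through Fgfr2, had ratios of 1.26, 1.19 and 0.946 in the wild-type pools, against 1.04, 0.960 and 0.846 in the mutant pools. Again 2 wild-type pools exceeded all mutant pools and the remaining wild-type pool, here replicate 3, fell inside the mutant range. The log2 difference was -0.25 (SE 0.118) and the largest of the members in size. Its interval reached from -0.51 to 0.01. It was -0.42 with the sex score as a covariate, at an unadjusted limma p of 0.0729.

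The ligands best known from segmentation showed no separation in this tissue, from which the presomitic mesoderm and tail bud had been cut away. Fgf8, made in the tail bud and presomitic mesoderm and also in other sites such as the apical ectodermal ridge of the limb, had ratios of 0.796, 0.998 and 1.002 in the wild-type pools, against 1.01, 0.904 and 1.18 in the mutant pools. The genotypes overlapped, with the lowest value in wild-type replicate 1 and the highest in mutant replicate 3, for a log2 difference of 0.14 (SE 0.119, interval -0.12 to 0.41). The value rested on single pools, at 0.035 once wild-type replicate 1 was left out and 0.043 once mutant replicate 3 was. With the sex score as a covariate it was 0.43, at an unadjusted limma p of 0.0524.

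Fgf4, which acts alongside Fgf8 in the presomitic mesoderm and is also made in the myotome, had gene values of 1.01, 1.02 and 0.946 in the wild-type pools, against 1.02, 0.995 and 1.03 in the mutant pools. The difference was 0.03 (SE 0.072), and its 4 probe sets did not go the same way. They gave 0.08, 0.18, -0.16 and 0.01 on the log2 scale. The second of these was 1 of 3 member probe sets whose groups did not overlap, at 0.985, 0.978 and 0.847 in wild-type and 1.015, 1.025 and 1.14 in mutant pools, and its name ends in _x_at, the mark for probes that can bind more than 1 transcript. Fgf3, a ligand of the hindbrain and otic region, was at 1.04, 1.04 and 0.948 in wild-type and 0.990, 1.05 and 0.980 in mutant pools, a difference of -0.01 (SE 0.076). Fitting the sex score beside genotype gave -0.09.

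Fgf3, Fgf4 and Fgf15 sit side by side on chromosome 7, the chromosome that carries Dll3, as does Fgfr2. They are far from it in gene order, with 1454 protein-coding genes between Fgf3 and Dll3 and 1245 between Fgfr2 and Dll3 in the RefSeq order of GRCm38.p6. Fgf15, a neural tube ligand at this stage, was at 0.885, 0.977 and 1.205 in wild-type and at 0.928, 1.02 and 1.22 in mutant pools. Its values differed far more within each genotype than between them, and both genotypes had their highest value in the pool numbered 3.

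The other ligands also overlapped between genotypes. Fgf1 gave a difference of -0.13 (SE 0.081), with both probe sets below 0. Fgf10, the limb bud mesenchyme ligand, gave -0.09, Fgf2 -0.06, Fgf5 -0.05, Fgf9 0.01 and Fgf17 0.05. For Fgf17, a relative of Fgf8, the 2 probe sets opposed each other: 1 gave -0.09, and the other gave 0.18 with groups that did not overlap, at 0.686, 0.660 and 0.723 in wild-type and 0.732, 0.853 and 0.770 in mutant pools. That second probe set, the only one of Fgf2, 1 of 2 of Fgf14 and 1 of 5 of Fgfr4 had a median ratio below 1 over the 6 pools.

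The intracellular FGF homologous factors, which bind sodium channels and the cytoskeleton and are not secreted, gave 2 differences above and 2 below 0, with a median of -0.03. Fgf11 had values of 1.07, 1.04 and 0.951 in the wild-type pools, against 1.09, 0.946 and 0.839 in the mutant pools, and its difference was -0.10 (SE 0.102). Both of its probe sets ranked mutant replicate 1 highest and mutant replicate 3 lowest, so the spread within the mutant group exceeded the difference between genotypes. Fgf14 was at 0.874, 0.794 and 0.829 in wild-type and 0.837, 0.750 and 0.803 in mutant pools, a difference of -0.06 (SE 0.078). Fgf12 (0.01) ran from 0.877 to 1.27 within the mutant pools alone, and Fgf13 was at 0.03.

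Of the 4 receptors, 3 had a difference above 0 and 1 below, with a median of 0.04. Fgfr3, which is expressed in neural progenitors and later in cartilage, had values of 1.01, 0.948 and 1.002 in the wild-type pools, against 0.967, 1.16 and 1.05 in the mutant pools. Mutant replicates 2 and 3 lay above the wild-type range and mutant replicate 1 inside it, and the difference was 0.10 (SE 0.084). With the sex score as a covariate it was -0.02.

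Fgfr1, the main receptor of presomitic and somitic mesoderm, was at 1.02, 0.935 and 0.923 in wild-type and 0.900, 0.991 and 1.06 in mutant pools. The mutant values span the wild-type ones, and the difference of 0.03 (SE 0.085) averages 2 probe sets that gave -0.10 and 0.16. With the sex score as a covariate Fgfr1 was at -0.16, on the other side of 0. Fgfr2 was at 1.08, 0.974 and 0.884 in wild-type and 0.976, 1.02 and 1.02 in mutant pools, a difference of 0.04 (SE 0.087), which also changed sign with that covariate, to -0.19.

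Fgfr4 marks myogenic cells of the myotome. It was at 1.05, 1.02 and 0.926 in wild-type and 1.07, 0.953 and 0.945 in mutant pools, a difference of -0.01 (SE 0.084) over 5 probe sets that ran from -0.08 to 0.05. The values of the muscle markers stand beside it: of 10 myotome genes, 6 were above 0 and 4 below, with a median of 0.06, and 0 passed the adjusted threshold in limma. An unadjusted p under 0.05, which 2.67% of all genes had, was reached by 4 of them, all above 0: Tnnt1, Actc1 and Acta1, which encode contractile proteins, and the myogenic regulator Myog, at 0.30 (SE 0.080). The other myogenic regulators were at -0.18 (Myf5), -0.08 (Myf6) and 0.01 (Myod1). Of the remaining genes of the list, Des was at -0.05, Chrna1 at -0.03 and Mef2c at 0.12. The mean log2 ratio of that list ran from -0.082 to -0.025 in the wild-type pools. It was 0.046, 0.206 and 0.017 in mutant replicates 1, 2 and 3, so mutant replicate 2 stood well above the other mutant pools. Fgfr4 did not show that separation, and any part of muscle content in its value was not tested.

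The feedback inhibitors, several of which ERK induces, had 5 differences above and 2 below 0 over 7 measured genes, with a median of 0.004 and a range of -0.12 to 0.09. Dusp6, which encodes the ERK phosphatase most used as an FGF readout, had ratios of 1.01, 0.866 and 0.995 in the wild-type pools, against 1.06, 0.986 and 1.005 in the mutant pools. Only wild-type replicate 2 stood below the rest, and the difference was 0.09 (SE 0.084, interval -0.10 to 0.28). In fold terms the interval reached from 0.935 to 1.21.

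Spry4, a Sprouty inhibitor of RAS activation, was at 0.972, 1.10 and 1.02 in the wild-type pools, against 1.02, 0.981 and 0.847 in the mutant pools. It had the most negative difference of the inhibitors, -0.12 (SE 0.091), with both probe sets below 0, and mutant replicate 3 was the lowest pool. Without mutant replicate 3 it was -0.04, and with the sex score as a covariate it was 0.03. Spry2 was at 1.08, 0.907 and 1.03 in wild-type and 1.12, 0.974 and 1.001 in mutant pools, a difference of 0.04 (SE 0.091), and its 2 probe sets gave -0.02 and 0.10. Spry1 gave 0.004 (SE 0.095).

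Il17rd, also called Sef, encodes a membrane inhibitor of the receptors. Its ratios of 0.992, 0.984 and 1.01 in the wild-type pools, against 1.05, 0.924 and 1.015 in the mutant pools gave a difference of 0.002 (SE 0.077, interval -0.17 to 0.17). Spred1, a RAS-RAF inhibitor, gave -0.02 (SE 0.087). Its relative Spred2 gave 0.07 (SE 0.074) as a gene, but its 2 probe sets disagreed. The first gave -0.07, and the second gave 0.21 (SE 0.081), at 0.899, 0.942 and 0.926 in the wild-type and 1.077, 1.065 and 1.058 in the mutant pools. This was the member probe set of smallest p in limma, with an unadjusted p of 0.0244 and an adjusted p of 1 over the 22626 probe sets. The groups did not overlap for 3 of the 54 member probe sets (5.56%), all 3 with the mutant pools above, against 7.46% of all probe sets.

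Etv4 and Etv5, ETS factors induced by FGF, went to either side of 0. Etv4 was at 0.977, 1.105 and 0.835 in the wild-type pools, against 1.02, 0.968 and 1.06 in the mutant pools. All mutant values lay between the lowest and the highest wild-type value, and the difference was 0.07 (SE 0.103). Etv5 was at 0.973, 1.03 and 0.996 in wild-type and 1.03, 0.941 and 0.961 in mutant pools, a difference of -0.03 (SE 0.074), and fitting the sex score beside genotype gave 0.06. Of the adaptors and partners only Ptpn11, the phosphatase Shp2 that relays the signal to RAS, was measured. It was at 0.958, 1.07 and 1.002 in wild-type and 0.974, 1.05 and 0.913 in mutant pools, and its 3 probe sets were all below 0, with a mean of -0.04 (SE 0.083).

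Probe sets of the same gene were compared as a check on the gene values. Of the 17 members with more than 1 probe set, 8 had all differences on the same side of 0 and 9 had differences on both sides. The members with agreeing probe sets were Fgf1, Fgf11, Fgf14, Spry4 and Ptpn11 below 0 and Fgf13, Fgfr2 and Fgfr3 above 0.

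**Figure D3:**
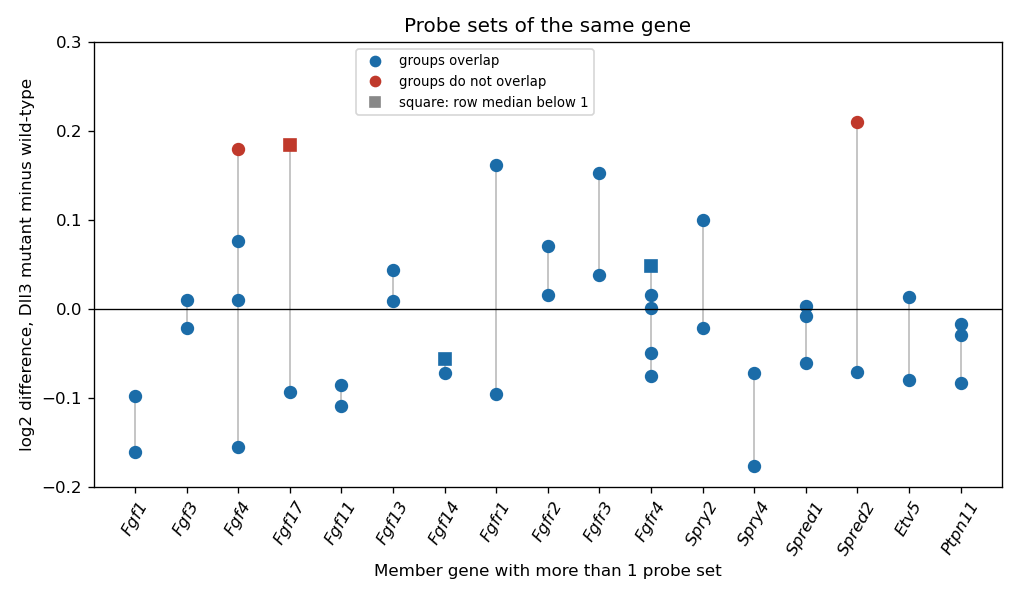
Log2 difference (Dll3 mutant minus wild-type) of each probe set for the 17 members with several, joined by a grey line per gene; red marks the 3 probe sets whose groups do not overlap (Fgf4, Fgf17 and Spred2), squares mark rows with a median ratio below 1. In each of these 3 genes another probe set lies below 0.

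The members had their highest or lowest value in certain pools more often than all genes did, a pattern noticed after their values were seen. Their typical spread between pools of the same genotype was like that of all genes (0.103 against 0.106 on the log2 scale). Mutant replicate 1 had the highest value for 12 of the 30 members (40%), against 17.9% of all genes, and the lowest for 1 member (3.33%), Fgfr1, against 21.0%. Mutant replicate 3 had the lowest value for 9 members (30%), against 16.1% of all genes. Both held together for 4 of the 30 members, Fgf5, Fgf11, Fgf12 and Spry1, and for 5.12% of all genes. Among the inhibitors, 5 of 7 were highest in mutant replicate 1, namely Spry1, Spry2, Spred2, Dusp6 and Il17rd, the first 2 with values of 1.18 and 1.12 there. The mean log2 ratio of the inhibitors was 0.080 in mutant replicate 1 and from -0.039 to 0.010 in the other 5 pools.

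**Figure D4:**
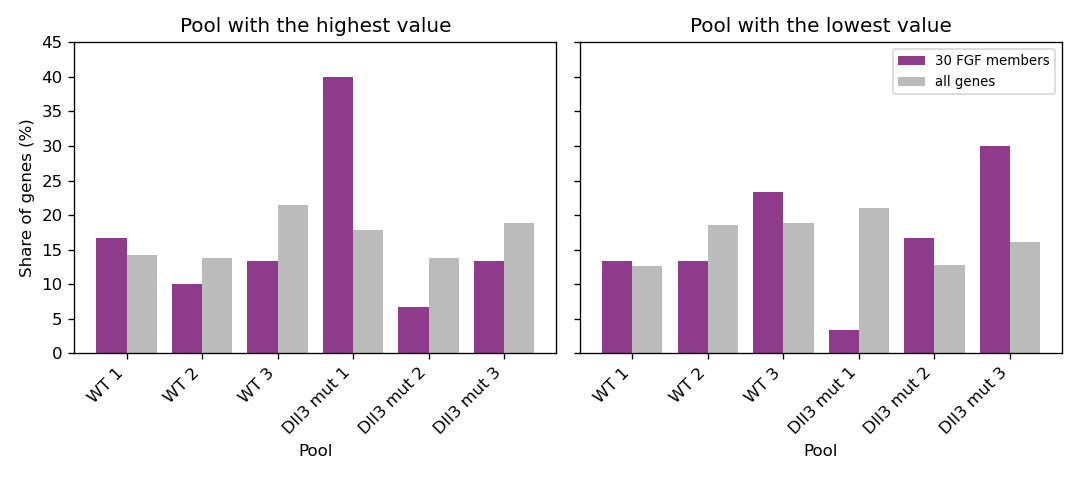
Share of genes (percent) whose highest (left) or lowest (right) value lay in each pool, for the 30 FGF members (purple) and all 12393 genes (grey). The members' highest value lay most often in Dll3 mutant replicate 1 (40%) and their lowest most often in Dll3 mutant replicate 3 (30%).

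The mean of the intracellular factors spread the most, from 0.073 in mutant replicate 1 to -0.185 in mutant replicate 3, while their wild-type means ran from -0.084 to 0.007. The mean of the 12 ligands was 0.003 in mutant replicate 1, -0.127 in mutant replicate 2 and -0.089 in mutant replicate 3, against -0.045 to -0.005 in the wild-type pools. Without mutant replicate 1 the median difference of the ligands was -0.10 in place of -0.03, and Fgf1, Fgf7 and Fgf18 had an unadjusted limma p under 0.05, which 5.10% of all genes then had. The receptors did not share this order, with their highest mean, 0.056, in wild-type replicate 1 and their lowest, -0.100, in wild-type replicate 3.

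The rest of the pathway was read from 4 lists with 66 of 81 genes measured. In limma 0 of the 66 passed the adjusted threshold, 2 (3.03%) had an unadjusted p under 0.05, and for 5 (7.58%) the groups did not overlap, close to the 2.67% and 7.46% of all genes. Of 14 further family genes, Fgf21, a hormone-like ligand of liver and fat in the adult, was at -0.29 (SE 0.106), Fgf16 at -0.19 (SE 0.087) and the decoy receptor Fgfrl1 at -0.11 (SE 0.090). Fgf16 had all 3 mutant pools, at 0.932, 0.996 and 0.940, below the wild-type pools, at 1.06, 1.21 and 1.004. Of 16 RAS, RAF and MAP kinase genes, 9 were above 0 and 7 below, with a median of 0.02. Plcg1, the phospholipase that active FGF receptors bind, was at -0.18 (SE 0.086) with groups that did not overlap, Rras at 0.13 and Araf at 0.12.

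Of 20 heparan sulphate genes, which shape how far ligands spread and how well they bind, 12 were above 0 and 8 below, with a median of 0.03. The sulphotransferase gene Hs6st1 was at 1.07, 1.03 and 0.981 in wild-type and 0.771, 0.855 and 1.02 in mutant pools, a difference of -0.23 (SE 0.103). The glypican gene Gpc1 was at 0.22 (SE 0.114) and the sulphatase gene Sulf2 at -0.16 (SE 0.114). Of 16 transcription factors and targets downstream of ERK, 4 were above 0 and 12 below, with a median of -0.06. Egr1, an immediate early gene, was at 1.05, 0.844 and 0.908 in wild-type and 1.26, 0.991 and 1.01 in mutant pools, a difference of 0.22 (SE 0.113). It was highest in mutant replicate 1, while Snai1 (-0.13) and Ets2 (-0.12) were lowest there. The mean log2 ratio of this list was -0.050 in mutant replicate 1 and ran from -0.066 to 0.001 in the other pools. The list as a whole thus did not share the inhibitors' high mean in that pool.

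Markers of sites that make FGF ligands were read beside the ligands, though the presomitic mesoderm and tail bud themselves had been cut away. Of 10 tail bud and presomitic genes, 2 were above 0 and 8 below, with a median of -0.10 and none at an unadjusted p under 0.05, and their mean log2 ratio ran from -0.007 to 0.062 in wild-type and from -0.092 to -0.0003 in mutant pools. Of 9 limb bud genes, 4 were above 0 and 5 below, with a median of -0.009. The farthest from 0 on either side were Tbx4, at -0.31 (SE 0.124), and Lmx1b, at 0.15 (SE 0.084). Tbx4 was the 1 limb bud gene with an unadjusted limma p under 0.05, against 2.67% of all genes. Groups did not overlap for 1 limb bud gene, Lmx1b (mutant above), and 1 tail bud gene, Evx1 (mutant below), against 7.46% of all genes. The limb bud list's mean ran from -0.101 to 0.041 in wild-type and from -0.082 to 0.024 in mutant pools. Of 10 surface ectoderm genes, 9 were above 0, against 51.9% of all genes, with a median of 0.14. None of them had an unadjusted limma p under 0.05 or groups that did not overlap. That list's mean ran from -0.160 to 0.088 in wild-type and from -0.086 to 0.182 in mutant pools. The part of these tissues in the values of Fgf7, Fgf8, Fgf10 or Fgf18 was not tested.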

How the data were processed

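Per the file table, the authors deposited 22690 probe sets by 6 pools as a ratio to a reference of each probe set; the reading as a ratio comes from the values. The ratios run to 3 decimals, and 1497 rows have a median below 1 by more than 0.0015. Per the submitters' processing notes the tools include RMA and MAS5, with no version or role stated; scaling between arrays is not given here. From these, log2 values were taken with no pseudocount. After removal of 64 control probe sets, 22626 were tested. Of these, the platform annotation gave 1 symbol for 20380, several for 691 and none for 1555, and 20351 of the named ones matched the RefSeq gene table (GRCm38.p6) by gene identifier.

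Probe sets, and the mean log2 ratio per gene for 12393 genes, were fitted in R 4.3.3 with limma 3.58.1 (lmFit, eBayes without a trend, genotype only, two-sided, Benjamini-Hochberg over all features, adjusted p under 0.05). The script was tested on simulated data. The design text calls the pools biological replicates; with 3 against 3 pools, 0.1 is the smallest p of an exact permutation test. Figures were drawn with matplotlib 3.10.9. Members and lists were chosen with earlier results of these data known. Values in every pool are given for textbook trunk FGF genes, the 2 members of smallest p in each role and any member with an unadjusted p under 0.05 or groups apart. Those of Fgf15 are given outside this rule. In each other pathway list a difference is given for the 3 genes of smallest p; the 3 of these with pool values were chosen after their values were seen. Probe sets described singly were chosen after their values were seen. Other settings tried were a replicate block, 2 other variance models, array weights, 2 normalizations, 2 probe set filters, the most variable probe set per gene, a sex score as a covariate (Xist minus the mean of Eif2s3y, Kdm5d and Uty, on the log2 scale), each pool left out and an unadjusted threshold.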

Additional observations from a re-analysis of the deposited data

How the results depend on the processing

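The count of FGF members past the adjusted threshold was 0 with all pools and under all 16 alternatives in limma, and 1 (Fgf18) at an unadjusted p under 0.05. Over the 18 members chosen by rule for values in every pool, which leaves out Fgf15, the smallest adjusted p of any alternative was 0.462 (Fgf7, with array weights). Of their 288 alternative values 38 changed sign, and 6 members (Fgf7, Fgf8, Fgf18, Fgf11, Fgf14 and Dusp6) kept theirs throughout. Fgf18 had an unadjusted p under 0.05 in 8 alternatives and Fgf7 in 5. Over all genes the adjusted count was 0. It was 1 (Uncx) with the replicate block, the variance trend, the robust fit with a trend and array weights, and 0 to 1 with pools left out (Xist, without wild-type replicate 1). It was 331 at the unadjusted threshold. Over probe sets the count of 0 became 1 with the replicate block or array weights, 2 with the robust fit with a trend, 0 to 1 with pools left out and 595 unadjusted.

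The median of the ligands, -0.03, was -0.10 with array weights and ran from -0.101 to 0.00603 with pools left out, lowest without mutant replicate 1. That of the receptors, 0.04, was -0.10 with the sex score as a covariate. That of the inhibitors, 0.004, ran from -0.0204 to 0.0599 with pools left out, highest without mutant replicate 3. These causes were not tested.

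The main fit did not take the replicate numbers to pair the pools. Deviations of same-numbered pools correlated across genes at 0.36, -0.04 and 0.40 for numbers 1, 2 and 3. Those of differently numbered pools ran from -0.45 (wild-type 3 with mutant 1) to 0.23 (wild-type 2 with mutant 1). Genes are not independent replicates, and whether same-numbered pools belong together was not tested. With the number as a block, 0 members passed and 2 had an unadjusted p under 0.05, against 4.98% of all genes. These were Fgf7, at a limma p of 0.00581, and Fgf18, at 0.0104. Ratios keep no signal over background, and no filter on dim probe sets was run.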
